A study of Caenorhabditis elegans with 12 samples.

Results

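The comparison set 3 libraries of whole early adult *Caenorhabditis elegans* that had spent 8 days in L1 arrest (starved EV) against 3 that had spent 1 day (control EV), out of 12 libraries in all. L1 arrest is the halt in development that a larva enters when it hatches without food. All animals were of the wild-type strain N2 (Bristol), and the series' design text calls the replicates biological. After arrest in food-free S-basal medium, pools of live larvae recovered at 20 °C on HT115 bacteria that carried the empty vector (EV) of an RNA interference experiment, so both groups shared the bacteria, the plates with Carb (as labelled) and IPTG. Animals were harvested when eggs appeared on the plate, after about 68 hours for starved EV and about 52 hours for control EV. Arrest length and recovery time therefore changed together and cannot be told apart in any result given here. The other 6 libraries had the same arrest lengths and recovered on bacteria labelled *daf-2* RNAi, which targets the insulin/IGF receptor gene. The comparison asks what a long early starvation leaves in the messenger RNA of the adult.

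A larva that resumes feeding passes through 4 larval stages, and each ends in a moult in which the epidermis secretes a new collagen cuticle and sheds the old one. Genes for collagens, cuticlins and the apical matrix are switched on in pulses that follow this moulting cycle, and the heterochronic genes set which stage-specific cuticle is made. In the adult hermaphrodite the germline is the largest proliferating tissue, with mitotic cells, meiotic cells and oocytes, and its messenger RNAs make up a large part of a whole-animal library. Insulin signalling through DAF-2 holds the transcription factor DAF-16 out of the nucleus in fed animals, and DAF-16 is needed for survival of L1 arrest.

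The 6 EV libraries held 21815842 to 25901878 reads over the listed genes. Levels are given in the deposited unit, CPM, which is the authors' read count scaled to a library size. A change is the difference of log2(CPM + 1) between group means, starved EV minus control EV, and is given with its standard error. Since the library kit keeps no strand, reads of overlapping genes cannot be told apart, and exon bases shared with another gene are given where they reach 100. A gene is called when limma's Benjamini-Hochberg adjusted p over all 12830 tested genes lies under 0.05. The adult collagen gene *col-19* was at 1204 CPM or more and the yolk protein gene *vit-2* at 8483 CPM or more in each of the 6 libraries, and every listed marker of neurons, muscle, pharynx, intestine, hypodermis, germline, oocytes, sperm and embryos was above 0 in each. In a principal component analysis of the 6 libraries 59.9% of the variance fell on the first component, which separated the groups, from -36.6 to -17.4 in control EV and from 14.3 to 45.6 in starved EV. On the second component, with 26.1%, both A libraries lay highest and both C libraries lowest. Muscle and yolk genes went with that second order, for example *unc-54*, a myosin heavy chain gene, at 2623, 989.7 and 541 CPM in control EV libraries A, B and C and at 2960.5, 628 and 413 CPM in starved EV. Ribosomal RNA genes took 1.44% to 2.54% of the reads in control EV and 0.851% to 3.80% in starved EV.

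Starved EV animals had more messenger RNA of many genes of low level and slightly less of many genes of high level. Of the 12830 tested genes, 1481 (11.5%) were called higher and 785 (6.12%) were called lower. The rises were larger than the falls. A change of at least 2-fold was seen in 573 genes called higher and in 7 called lower, and one of at least 4-fold in 111 and in 3. The median change was 0.88 among genes called higher, whose median level was 4.96 CPM, and -0.48 among genes called lower, whose median level was 69.6 CPM. In bulk samples of whole animals, fewer cells of a type and less RNA per cell cannot be told apart, and neither can they where a gene rose. Groups did not overlap, with all 3 libraries of one group above all 3 of the other, in 3006 genes that were higher (23.4%) and 2140 that were lower (16.7%) in starved EV.

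The count of calls rested on 4 libraries more than on the rest. It was 897 without control EV library B (726 higher and 171 lower), 728 without control EV library C (659 and 69), 879 without starved EV library A (728 and 151) and 802 without starved EV library C (715 and 87), and 606 genes were called whichever of the 12 libraries was left out. The balance of rises and falls depended on the scaling. With all libraries rescaled to the same sum, the median change of all tested genes moved from 0.03 to 0.13 and 91.3% of the calls were higher, against 65.4% in the scaling of the deposited values. DESeq2 on the recovered reads gave 3238 calls, 53.6% of them higher, quantile normalization 1484 (57.0%) and a fit restricted to means of 5 CPM and above 1335 (46.9%). The fit of the 6 EV libraries alone gave 1124 (92.0%).

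**Figure D1:**
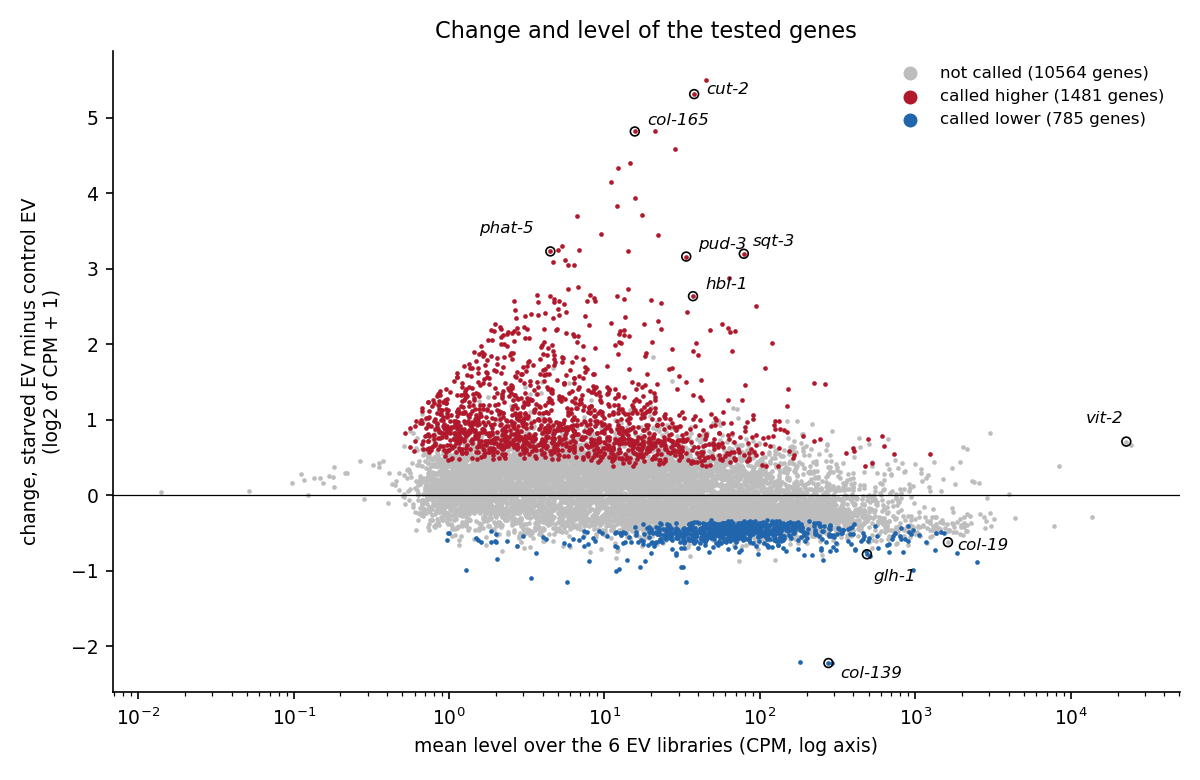
Each point is 1 of the 12830 tested genes, with its mean level over the 6 EV libraries (CPM, log axis) against its change (difference of log2(CPM + 1), starved EV minus control EV). Genes called higher (1481) spread up to changes above 5 at low and middle levels, and most genes called lower (785) lie between 0 and -1 at middle and high levels, apart from 3 collagen genes near -2.2.

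The direction of change followed the level of a gene, taken for these ranges as its mean over all 12 libraries. Among genes with a mean under 5 CPM, 20.1% were called higher and 0.526% lower. Among genes between 50 and 100 CPM, 3.16% were called higher and 14.8% lower. At 500 CPM or more the shares were 1.71% and 11.6%, and the median change was -0.35. Gene lists that are set below only against all tested genes were not matched for level.

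On the X chromosome few genes were called lower at any level. The X chromosome of *C. elegans* is known to hold few genes of germline expression. Of 1805 tested X genes, 344 (19.1%) were called higher and 7 (0.388%) lower, with a median change of 0.29. Of 10854 autosomal genes, 1122 (10.3%) were called higher and 775 (7.14%) lower, with a median of -0.05. Between 50 and 100 CPM, 17 of 141 X genes were called higher and 0 lower, whereas 39 of 1618 autosomal genes were called higher and 260 lower. In that range the median change was 0.24 on X and -0.27 on the autosomes. The X median was above the autosomal median in every one of the other fits, 0.12 against -0.10 after quantile normalization being the closest pair. The 2 sets of chromosomes were compared by these shares and medians only, with no test. Among the autosomes, chromosome I had the lowest share called higher (7.67%) and the highest share called lower (9.62%), and chromosome V the highest share called higher (13.96%).

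**Figure D2:**
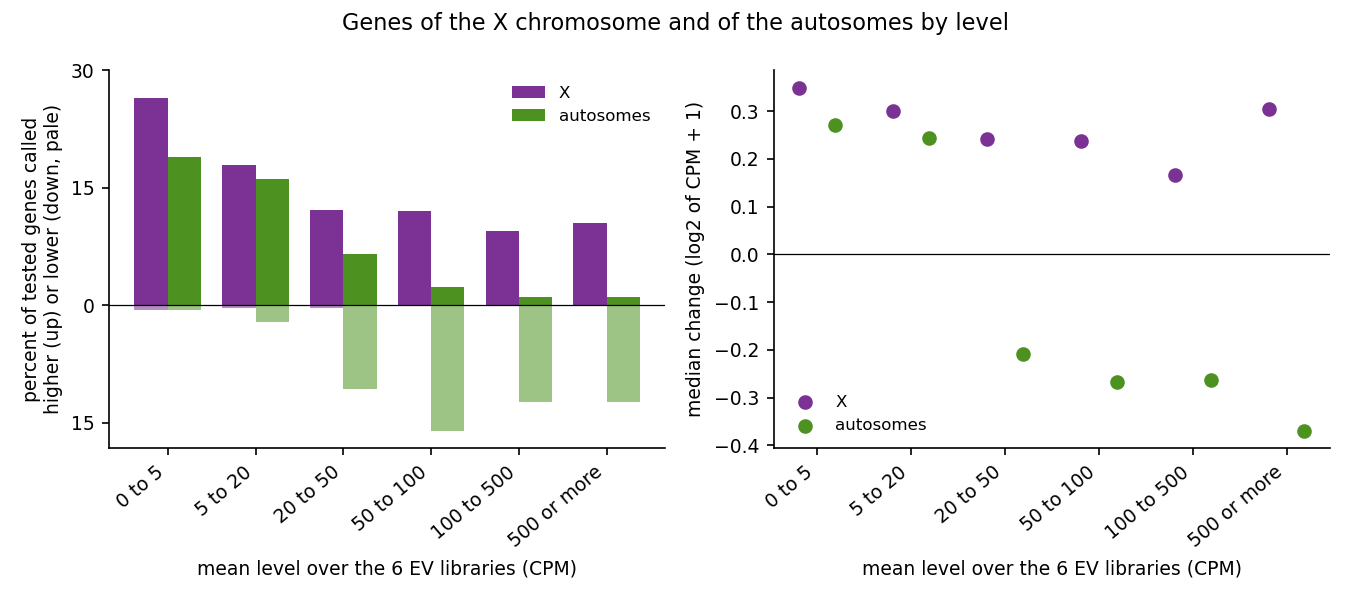
Left, percent of tested genes called higher (bars upward) or lower (pale bars downward) on the X chromosome and on the autosomes, by mean level (CPM). The mean level was taken over all 12 libraries, although the axis names the 6 EV libraries. Right, median change (difference of log2(CPM + 1)) in the same level ranges, where X stays above 0 throughout and the autosomes lie below 0 from 20 CPM upward.

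Most collagens of the annular furrows rose by several fold. The annular furrows of the cuticle are built from a set of 6 collagens, of which 4 rose and none fell, with a median change of 1.93. Of all tested genes 11.5% were called higher. These 4 calls held without any one library. *dpy-7* (F46C8.6, X chromosome, 7536467 to 7537792) lay at 5.05, 0.496 and 3.67 CPM in control EV libraries A, B and C and at 20.1, 17.5 and 25 CPM in starved EV. All starved EV libraries were far above all control EV libraries, and control EV library B was the lowest. The change was 2.64 ± 0.51 (limma, adjusted p = 0.00606). *dpy-2* rose from 2.82, 0.951 and 2.79 to 13.8, 11.2 and 15.99 CPM over the same libraries (change 2.26 ± 0.36, adjusted p = 0.0019) and *dpy-3* from 4.51, 0.414 and 2.19 to 12.62, 9.92 and 10.3 CPM (change 2.03 ± 0.43, adjusted p = 0.0104), which neither edgeR nor DESeq2 called. *dpy-10* rose by 1.84 ± 0.26 (adjusted p = 0.000914), but shares 780 exon bases with T14B4.19. Summed over the 6 furrow collagens the level was 27.4, 11.2 and 21.2 CPM in control EV and 80.05, 71.0 and 85.2 CPM in starved EV.

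Of 11 other collagens that shape the body, 4 rose (36.4%, against 11.5% of all tested genes) and none fell (median 1.34). Without control EV library B, 2 were still called. *sqt-3* (F23H12.4, chromosome V, 12352745 to 12354320), a collagen needed for embryonic and larval body shape, was at 32.01, 5.05 and 15.9 CPM in control EV libraries A, B and C and at 183, 111.8 and 125 CPM in starved EV (change 3.20 ± 0.62, adjusted p = 0.00628, 144 exon bases shared with F23H12.13). *dpy-17*, whose product acts with that of *sqt-3*, was at 47.1, 12.1 and 32.3 and 151, 137 and 185 CPM (change 2.51 ± 0.51, adjusted p = 0.00807). In both genes control EV library A was the highest of the controls and library B the lowest, and the groups did not overlap. Each of these 4 furrow collagens, *sqt-3* and *dpy-17* had its lowest value in control EV library B.

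None of 8 collagens of the L4 and adult cuticle was called, while 7 of the 8 changes were positive and their median was 0.67. Their difference from the furrow and other body-shape collagens was not tested. Their summed level was 1585, 2326 and 2059 CPM in control EV libraries A, B and C and 1375, 1305 and 1216 CPM in starved EV, nearly all of it from *col-19*. This gene had all 3 starved EV libraries, at 1323, 1276 and 1204 CPM, below all 3 control EV libraries, at 1574, 2304 and 2046 CPM. Its change of -0.62 ± 0.23 was not called by limma (adjusted p = 0.0727), whereas DESeq2 and the fit with array weights called it, as did limma without control EV library A or without control *daf-2* RNAi library A.

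Of 93 members of the wider *col* class, 26 were called higher (27.96%, against 11.5% of all tested genes). The 6 called lower were 6.45%, near the 6.12% of all tested genes. Leaving out control EV library C left 17 of the rises, and leaving out control EV library B left 1 of the falls. The class median was 0.22 and turned negative when the fit was restricted to means of 5 CPM and above. Large rises were those of *col-165* (0.248, 0.0414 and 0.0930 against 39.2, 25.9 and 28.5 CPM, change 4.82 ± 0.21, adjusted p = 1.3e-07), *col-107* (change 3.71 ± 0.53, adjusted p = 0.000972) and *col-65* (change 3.30 ± 0.23, adjusted p = 4.43e-06). *col-165* had 5, 1 and 2 reads in the control EV libraries and 864, 661 and 766 in the starved EV libraries. The falls of 3 collagen genes were larger than that of any other called gene. *col-139* (F41F3.4, chromosome V, 4652863 to 4653971) was at 296, 707 and 372 CPM in control EV and 104.3, 111 and 64.5 CPM in starved EV, with library B of control EV the highest of all (change -2.22 ± 0.47, adjusted p = 0.0101). *col-129* and *col-81* changed by -2.23 and -2.21, but were not called without control EV library B or starved EV library C (adjusted p up to 0.0572 and 0.0661).

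Cuticlins and other zona pellucida (ZP) domain proteins, which form the alae and matrices under the collagen layers, rose in most members. Of 28 tested members, 22 were called higher (78.6%, against 11.5% of all tested genes) and none lower, and the change was positive in all 28. The median change was 1.05, and the lowest count over fits that leave out a library was 14 called without control EV library B. *cut-2* (F53F1.5, chromosome V, 13414949 to 13416064), a cuticlin, had 35, 3 and 14 reads in control EV libraries A, B and C and 2762, 1202 and 1384 in starved EV. In CPM these were 1.73, 0.124 and 0.651 against 125, 47.2 and 51.5, with starved EV library A more than 2 times as high as the other two (change 5.31 ± 0.42, adjusted p = 1.14e-05). *cut-3* was at 0.446, 0.124 and 0.140 and 29.2, 19.2 and 24.3 CPM (change 4.34 ± 0.25, adjusted p = 1.47e-06), and *cutl-28*, a cuticlin-like gene, rose by 2.08 ± 0.29 (adjusted p = 0.000723). *noah-2*, a ZP protein of the apical matrix, went from 31.4, 6.58 and 18.8 to 78.1, 61.7 and 91.0 CPM (change 2.18 ± 0.50, adjusted p = 0.0146), a call lost without control EV library B or starved EV library C (adjusted p up to 0.0559).

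Enzymes that process and cross-link collagen changed less. Of 14 tested, 5 were called higher (35.7%, against 11.5% of all tested genes) and none lower. The median was 0.32, and 1 call was left without control EV library B. That list held *dpy-1*, which rose from 1.34, 0.744 and 0.558 to 5.72, 3.37 and 2.97 CPM (change 1.40 ± 0.28, adjusted p = 0.00735).

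Lipocalins and other secreted proteins of the apical matrix, the transient layer that patterns the cuticle before it hardens, rose in 9 of 12 members. This was 75%, against 11.5% of all tested genes, and none was lower (median 1.35, and at fewest 6 called without control EV library B). The lipocalin genes *lpr-3*, *lpr-4*, *lpr-5* and *lpr-6* lie close together on the X chromosome and all rose. *lpr-5* was at 2.68, 0.662 and 1.40 CPM in control EV and 13.9, 12.2 and 17.3 CPM in starved EV (change 2.65 ± 0.33, adjusted p = 0.000414). Over the other 3 the changes were 2.19, 2.59 and 2.74, in the order *lpr-3*, *lpr-4* and *lpr-6*, and *lpr-3* shares 110 exon bases with C09F12.6.

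Regulators of the moult and the hedgehog-related proteins of the epidermis rose together with the cuticle genes. Of 21 moulting regulators, 10 rose (47.6%, against 11.5% of all tested genes) and none fell (median 0.70, and at fewest 6 called without control EV library B). *mlt-8* (W08F4.6, chromosome II, 569210 to 572110), a secreted protein needed to complete the moult, was at 5.90, 1.57 and 4.47 CPM in control EV libraries A, B and C and 22.7, 17.6 and 28.5 CPM in starved EV (change 2.36 ± 0.34, adjusted p = 0.00105). *mlt-9* was at 0.694, 0.248 and 0.186 and 8.67, 5.22 and 7.55 CPM (change 2.56 ± 0.21, adjusted p = 1.67e-05). *acn-1*, which encodes a relative of angiotensin-converting enzyme that lacks the catalytic residues, rose by 1.99 ± 0.23 (adjusted p = 0.000224). In all 3 genes every starved EV library was above every control EV library. *nhr-25*, a nuclear receptor required for moulting, rose from 7.04, 4.88 and 6.93 to 17.6, 12.4 and 20.7 CPM (change 1.28 ± 0.28, adjusted p = 0.0103). *nhr-23*, a further receptor of the moulting clock, was at 82.7, 77.6 and 55.96 and 70.7, 64.4 and 45.5 CPM and was not called (change -0.26 ± 0.18, adjusted p = 0.307).

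*C. elegans* lacks a canonical hedgehog pathway, and its many hedgehog-related secreted proteins and patched-related membrane proteins serve mainly the epidermis and its secretions. Of 24 hedgehog-related genes, 13 rose (54.2%, against 11.5% of all tested genes) and none fell (median 0.79, and at fewest 9 called without control EV library B). *wrt-1*, of the warthog class, was at 0.892, 0.579 and 0.698 CPM in control EV and 9.08, 7.06 and 12.2 CPM in starved EV (change 2.57 ± 0.19, adjusted p = 6.12e-06). The ground-like genes *grl-7* and *grl-5* rose by 2.45 and 1.90, from under 0.2 CPM in each control EV library to at least 2.71 CPM in each starved EV library. Of 27 patched and patched-related genes, 17 rose and none fell (median 0.68, and at fewest 10 called without control EV library B). *ptr-4* rose from 1.83, 0.620 and 0.651 to 13.3, 10.4 and 13.5 CPM (change 2.76 ± 0.30, adjusted p = 0.000152), and *ptr-25*, *ptr-18* and *ptr-19* by 2.61, 1.83 and 1.57. The hypodermal and seam markers chosen to check the tissue summed to 190 to 268 CPM in control EV and 243 to 338 CPM in starved EV, so the ranges overlapped, and their part in these rises was not tested.

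Of 23 tested heterochronic genes, 5 rose (21.7%, against 11.5% of all tested genes) and none fell (median 0.33), with 2 rises left without control EV library C. *hbl-1* (F13D11.2, X chromosome, 5822142 to 5827755), a zinc finger factor that promotes early larval cell fates and is normally lowered as larvae develop, was at 20.5, 5.13 and 7.12 CPM in control EV libraries A, B and C and 76.4, 54.5 and 59.0 CPM in starved EV. The groups were far apart, with control EV library A the highest of the controls (change 2.64 ± 0.45, adjusted p = 0.00288). *blmp-1*, a zinc finger factor of the moulting cycle, rose from 17.7, 13.8 and 8.65 to 32.3, 25.6 and 28.7 CPM (change 1.102 ± 0.23, adjusted p = 0.00944). *lin-29*, the factor of the larval-to-adult switch, was at 3.62, 3.68 and 2.65 CPM in control EV and 6.85, 3.02 and 2.97 CPM in starved EV, with overlapping groups (change 0.22 ± 0.25, adjusted p = 0.523).

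**Figure D3:**
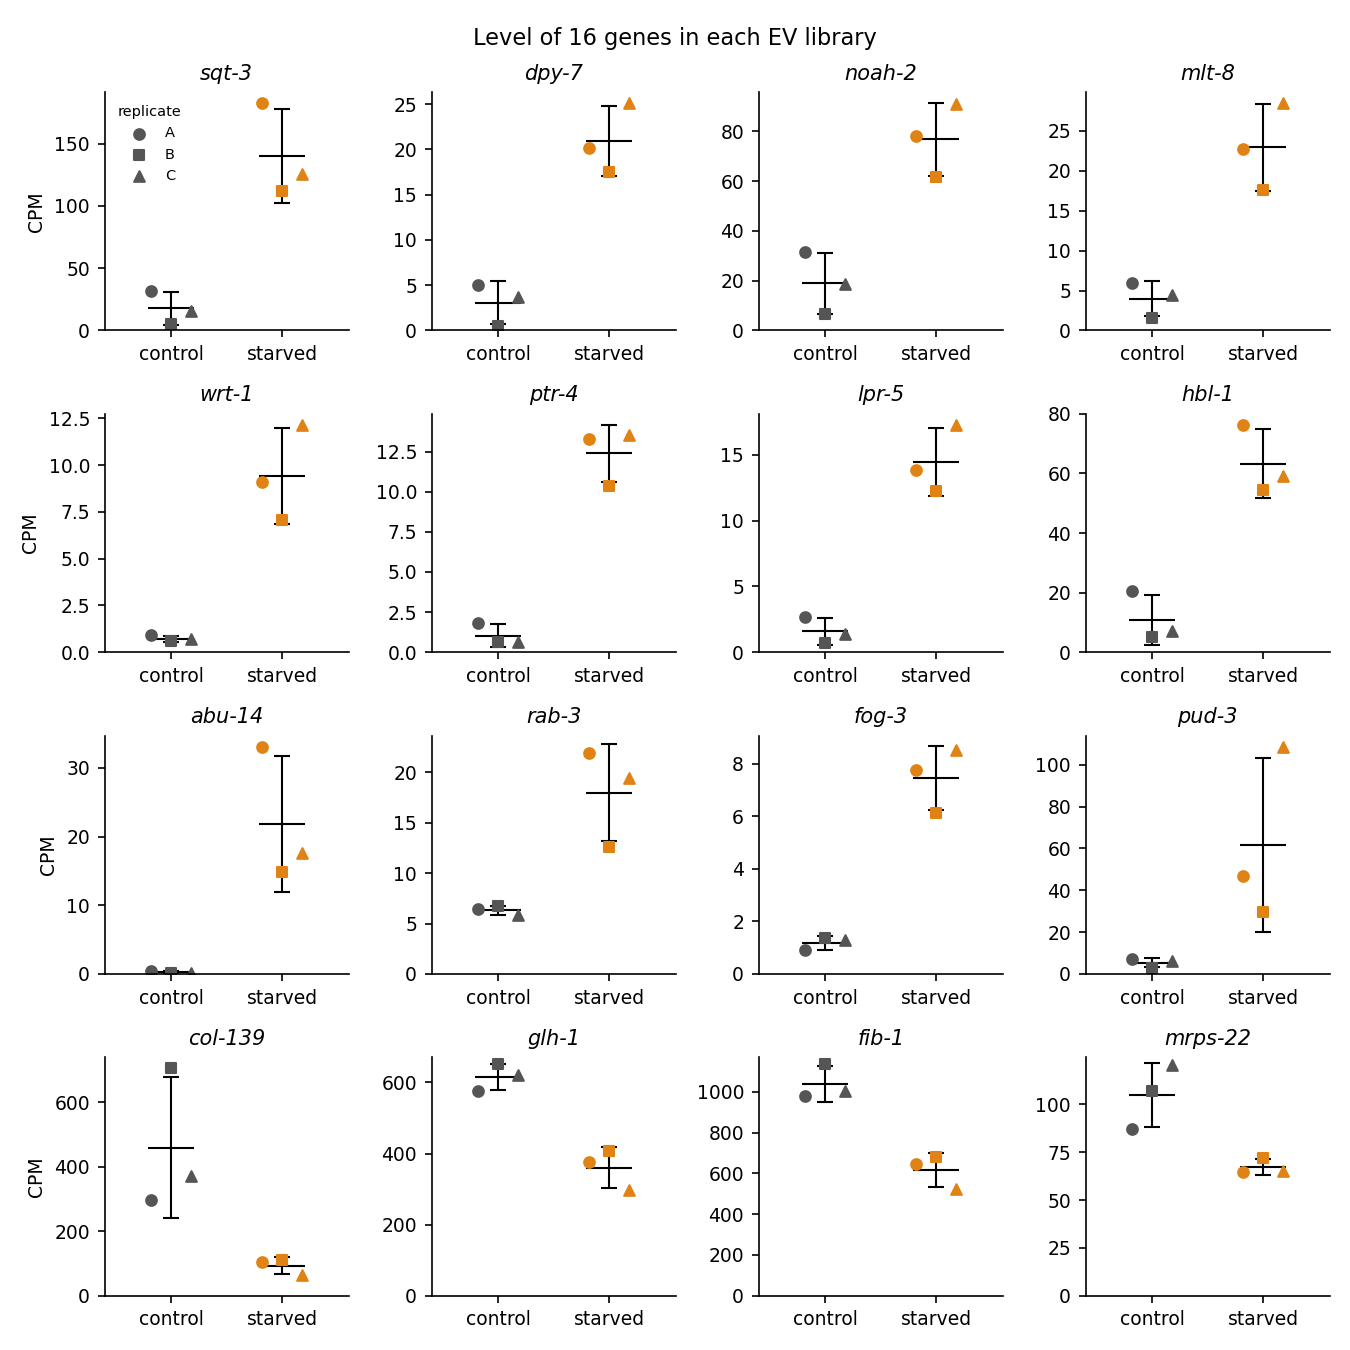
Level in CPM of single genes in the 3 control EV and the 3 starved EV libraries, with circles, squares and triangles for replicates A, B and C and a line and bars for the mean and SD of each group (n = 3). From *sqt-3* to *pud-3* every starved library lies above every control library, and from *col-139* to *mrps-22* every starved library lies below.

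The lining of the pharynx, which is also a cuticle and is replaced at each moult, showed the same direction. Of 11 pharyngeal cuticle genes, 7 rose (63.6%, against 11.5% of all tested genes) and none fell (median 1.38, and at fewest 5 called without control EV library B). *abu-14*, a repeat protein of this lining, was at 0.396, 0.124 and 0.140 CPM in control EV and 33.1, 14.8 and 17.6 CPM in starved EV (change 4.15 ± 0.29, adjusted p = 4.94e-06). *idpc-1*, for a disordered protein of the pharyngeal cuticle, rose by 2.23 ± 0.41 (adjusted p = 0.00442), and its starved EV library A, at 11.9 CPM, was more than 3 times as high as the other two. Of 7 mucin-like genes of the pharyngeal glands, *phat-5* and *phat-2* rose and none fell, and *phat-2* shares 141 exon bases with *anr-10*. *phat-5* had 2, 0 and 0 reads in the control EV libraries and 260, 160 and 235 in the starved EV libraries (change 3.23 ± 0.22, adjusted p = 4.26e-06). Of 9 pharyngeal muscle genes, 2 were called higher and none lower, with 1 left without control EV library B. *ceh-22*, a homeobox factor of that muscle, rose from 0.694, 0.414 and 0.558 to 2.22, 2.16 and 1.86 CPM (change 0.99 ± 0.15, adjusted p = 0.00111), but shares 555 exon bases with F29F11.19. The 4 pharynx markers chosen to check the tissue summed to 55.3 to 232 CPM in control EV and 92.9 to 537 CPM in starved EV, and their part in these rises was not tested.

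Genes of sensory cilia rose in part. Of 20 genes of cilia and intraflagellar transport, the machinery that builds the sensory endings of neurons, 11 rose (55%, against 11.5% of all tested genes) and none fell, and all 20 changes were positive (median 0.81, and at fewest 6 called without control EV library C). *mks-5*, which organises the ciliary transition zone, was at 0.595, 0.662 and 0.512 CPM in control EV and 3.18, 1.96 and 2.45 CPM in starved EV (change 1.14 ± 0.17, adjusted p = 0.00113). The transition zone genes *nphp-1* and *nphp-4* rose by 1.12 and 1.12, and the transport gene *osm-5* by 1.06, a call that quantile normalization ended. Of 25 pan-neuronal and neuron type genes, 6 rose (24%, against 20.1% of all genes under 5 CPM and 16.42% between 5 and 20 CPM) and none fell, with all 25 changes positive (median 0.59, and at fewest 2 called without control EV library C). *rab-3*, a GTPase of synaptic vesicles, was at 6.44, 6.70 and 5.81 and 21.9, 12.59 and 19.4 CPM (change 1.34 ± 0.26, adjusted p = 0.00631, 110 exon bases shared with C18A3.16), and *unc-86*, a POU homeobox factor, rose by 1.77 ± 0.26 (adjusted p = 0.00113). Of 55 neuropeptide precursor genes, 2 were called higher (3.64%, below the 11.5% of all tested genes), and none of these was called without control EV library B. The neuron markers chosen to check the tissue summed to 226 to 242 CPM in control EV and 257 to 323 CPM in starved EV, without overlap. They include *rab-3*, so this sum is not independent of its rise. The part of the markers in these rises was not tested.

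None of 34 body wall muscle genes was called, and the median change was -0.12, which turned positive after quantile normalization. Without starved EV library B or starved EV library C the median also changed sign. Of 14 genes of chondroitin synthesis and vulval eversion all changes were negative, with a median of -0.25. In that list 1 gene was called lower (7.14%, near the 6.12% of all tested genes), a call lost without control EV library B.

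In the intestine 6 of 22 genes rose (27.3%, against 11.5% of all tested genes) and none fell (median 0.38, and at fewest 2 called without control EV library C). *pgp-1*, a P-glycoprotein transporter, was at 8.03, 4.14 and 4.70 CPM in control EV and 37.8, 26.4 and 26.7 CPM in starved EV (change 2.27 ± 0.34, adjusted p = 0.0013), and *mtl-2*, a metallothionein gene, at 10.5, 7.24 and 9.12 and 17.97, 20.3 and 25.9 CPM (change 1.17 ± 0.23, adjusted p = 0.0068). Of 24 genes of the vulva, uterus and somatic gonad, 7 rose (29.2%) and none fell (median 0.45), with 1 left without control EV library B. *egl-43*, a zinc finger factor of the anchor cell, rose from 2.82, 1.78 and 2.19 to 7.31, 6.08 and 6.95 CPM (change 1.26 ± 0.17, adjusted p = 0.000665). Of 20 basement membrane genes all changes were positive and 3 were called (15%, near the 11.5% of all tested genes), with 1 left without control EV library B. *agr-1*, which encodes agrin, rose from 3.72, 2.15 and 2.42 to 11.5, 8.24 and 10.1 CPM (change 1.55 ± 0.23, adjusted p = 0.00123).

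P granules are the RNA-protein bodies that mark germ cells. Of 23 P granule genes 7 fell and none rose, and all 23 changes were negative (median -0.43, and at fewest 3 called without control EV library B). The 7 are 30.4%, against 6.12% of all tested genes and 11.6% of those between 100 and 500 CPM. *glh-1* (T21G5.3, chromosome I, 6854478 to 6857536), a Vasa-like helicase, was at 576, 651 and 620.3 CPM in control EV libraries A, B and C and 376, 408 and 297 CPM in starved EV (change -0.78 ± 0.14, adjusted p = 0.00452). *pgl-1*, which encodes a P granule scaffold, was at 571, 632 and 599.9 and 362, 417.9 and 305 CPM (change -0.74 ± 0.14, adjusted p = 0.00553). The ranges of the groups did not meet in either gene. The 5 germline markers chosen to check the tissue summed to 2332 to 2863 CPM in control EV and 1296 to 2000 CPM in starved EV. They include *glh-1* and *pgl-1*, so this sum is not independent of the falls just given. The part of the markers in these falls was not tested.

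The meiosis and synapsis list had 19 of 48 genes lower (39.6%, against 6.12% of all tested genes) and none higher, with all 48 changes negative (median -0.42, and at fewest 2 called without control EV library C). Between 50 and 100 CPM, 14.8% of all genes were called lower. *zhp-2*, a RING finger protein of the synaptonemal complex, fell from 39.99, 40.7 and 40.3 to 21.96, 29.03 and 22.9 CPM (change -0.70 ± 0.13, adjusted p = 0.00448, 272 exon bases shared with D1081.6). *zim-3*, which marks pairing centres of autosomes, fell from 67.6, 66.9 and 72.98 to 45.2, 51.7 and 43.2 CPM (change -0.56 ± 0.11, adjusted p = 0.00631). Among 28 genes of germline stem cells and meiotic entry 3 fell (10.7%) and 1 rose, and none of the falls was called without control EV library B. The gene that rose was *fog-3* (C03C11.2, chromosome I, 10016765 to 10018121), a Tob family gene that commits germ cells to become sperm. It was at 0.892, 1.36 and 1.302 CPM in control EV and 7.76, 6.12 and 8.52 CPM in starved EV, each starved EV library more than 4 times as high as each control EV library (change 1.95 ± 0.26, adjusted p = 0.000578). Sperm genes did not follow it. None of 15 major sperm protein genes was called (median -0.29), nor did any of 34 other sperm genes rise, with 1 called lower. The Notch receptor gene *glp-1*, which keeps germ cells mitotic, was at 388, 328 and 272 and 292, 295 and 199 CPM with overlapping groups (change -0.34 ± 0.19, adjusted p = 0.214).

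Oocyte and eggshell genes had mostly negative changes with few calls. Of 25 oocyte RNA-binding and maturation genes 1 was called lower (4%, median -0.36). Of 16 eggshell genes 2 were called lower (12.5%, median -0.32). Of all tested genes 6.12% were called lower, and 11.6% of those between 100 and 500 CPM. In both lists no call was left without control EV library B. The 4 oocyte markers summed to 3652 to 5561 CPM in control EV and 2837 to 4406 CPM in starved EV, with overlap. Of 35 genes expressed first in the embryo, *sdz-24* rose, from 0.743, 0.869 and 1.16 to 5.58, 3.69 and 5.39 CPM (change 1.602 ± 0.18, adjusted p = 0.000224), and none fell. The embryo markers summed to at most 118.8 CPM in control EV and at most 149.9 CPM in starved EV, with overlapping groups.

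Some genes of cell division were called lower. Of 38 DNA replication genes 7 fell and of 50 mitosis genes 9 fell, none rose in either list, and the medians were -0.31 and -0.38. These are 18.4% and 18% of the lists, against 6.12% of all tested genes, 14.8% of those between 50 and 100 CPM and 11.6% of those between 100 and 500 CPM. None of these was called without control EV library B. Linker histones went both ways. *hil-7* rose from 8.03, 0.0827 and 4.19 to 39.4, 31.5 and 49.1 CPM (change 3.45 ± 0.64, adjusted p = 0.0048), with control EV library B at 2 reads, and *hil-5* fell from 309, 314 and 296 to 172, 231 and 161 CPM (change -0.72 ± 0.14, adjusted p = 0.00666). Of 55 argonaute and RNA interference genes 10 fell (18.2%) and 1 was called higher (median -0.29), and 1 fall was left without control EV library C. *tofu-4*, which is needed to make piRNAs, fell from 34.1, 35.7 and 33.7 to 23.8, 23.4 and 21.7 CPM (change -0.57 ± 0.11, adjusted p = 0.00662).

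Of 36 ribosome biogenesis genes 17 fell (47.2%, against 6.12% of all tested genes) and none rose (median -0.44, and at fewest 5 called without control EV library C). Between 100 and 500 CPM, 11.6% of all genes were called lower. *fib-1* (T01C3.7, chromosome V, 15000651 to 15002223), which encodes the nucleolar methyltransferase fibrillarin, was at 978, 1139 and 1003 CPM in control EV and 648, 681 and 523 CPM in starved EV (change -0.76 ± 0.15, adjusted p = 0.00814). *garr-1*, for a component of box H/ACA particles, was at 289, 355 and 345 and 192, 179 and 172 CPM (change -0.86 ± 0.12, adjusted p = 0.000999), and *nol-56* at 507, 537 and 474 and 329, 335 and 263 CPM (change -0.72 ± 0.15, adjusted p = 0.00876). In each of these genes the highest starved EV library was below the lowest control EV library. *nucl-1*, which encodes nucleolin, was called lower by -0.99 ± 0.28 (adjusted p = 0.0341), but not without control EV A, B or C or starved EV C (adjusted p up to 0.113), after quantile normalization or with the 6 EV libraries alone.

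Of 81 cytosolic ribosomal protein genes 19 fell (23.5%, against 11.6% of all genes at 500 CPM or more) and none rose (median -0.46), with 79 of the 81 changes negative, and 1 fall was left without control EV library C. Their summed level was 89865, 105490.0 and 111420.0 CPM in control EV libraries A, B and C and 66581, 84011 and 73381 CPM in starved EV, so the groups did not overlap. *rpl-25.2* fell from 666, 676 and 793 to 394, 511 and 413 CPM (change -0.70 ± 0.13, adjusted p = 0.00563). Of 67 mitochondrial ribosomal protein genes 22 fell and none rose, with all 67 changes negative (median -0.44, and at fewest 2 called without control EV library C). The 22 are 32.8%, against 6.12% of all tested genes and 14.8% of those between 50 and 100 CPM. *mrps-22* was at 87.1, 107 and 121 and 64.6, 72.1 and 65.0 CPM (change -0.62 ± 0.13, adjusted p = 0.0102). Translation factors fell in 11 of 49 genes, aminoacyl-tRNA synthetases in 6 of 32 and proteasome subunits in 7 of 33, with none higher. These are 22.4%, 18.8% and 21.2%, against 11.6% of all genes between 100 and 500 CPM. Without control EV library B, 1 translation factor and no proteasome subunit was called, and without control EV library C no synthetase. After rescaling to the same sum 173 genes were called lower in all, against 785.

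Of 24 heat shock genes 3 rose and 2 fell (12.5% and 8.33%, near the 11.5% and 6.12% of all tested genes), and the rises held without any one library. *hsp-43*, a small heat shock protein gene, rose from 51.98, 58.7 and 53.2 to 97.7, 84.7 and 99.9 CPM (change 0.77 ± 0.14, adjusted p = 0.00422). *hsp-12.1* and *hsp-17* rose by 1.14 and 0.89. *hsp-60*, the mitochondrial chaperonin, was called lower by -0.57 ± 0.16 (adjusted p = 0.032), but not without starved EV A, starved EV C or any one of the control EV libraries (adjusted p up to 0.11), after quantile normalization or with the 6 EV libraries alone. Of 48 chaperonin and DnaJ genes 9 fell (18.8%, against 11.6% of all genes between 100 and 500 CPM) and 2 rose. No fall was called without control EV library C, and no rise without control EV library B.

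**Figure D4:**
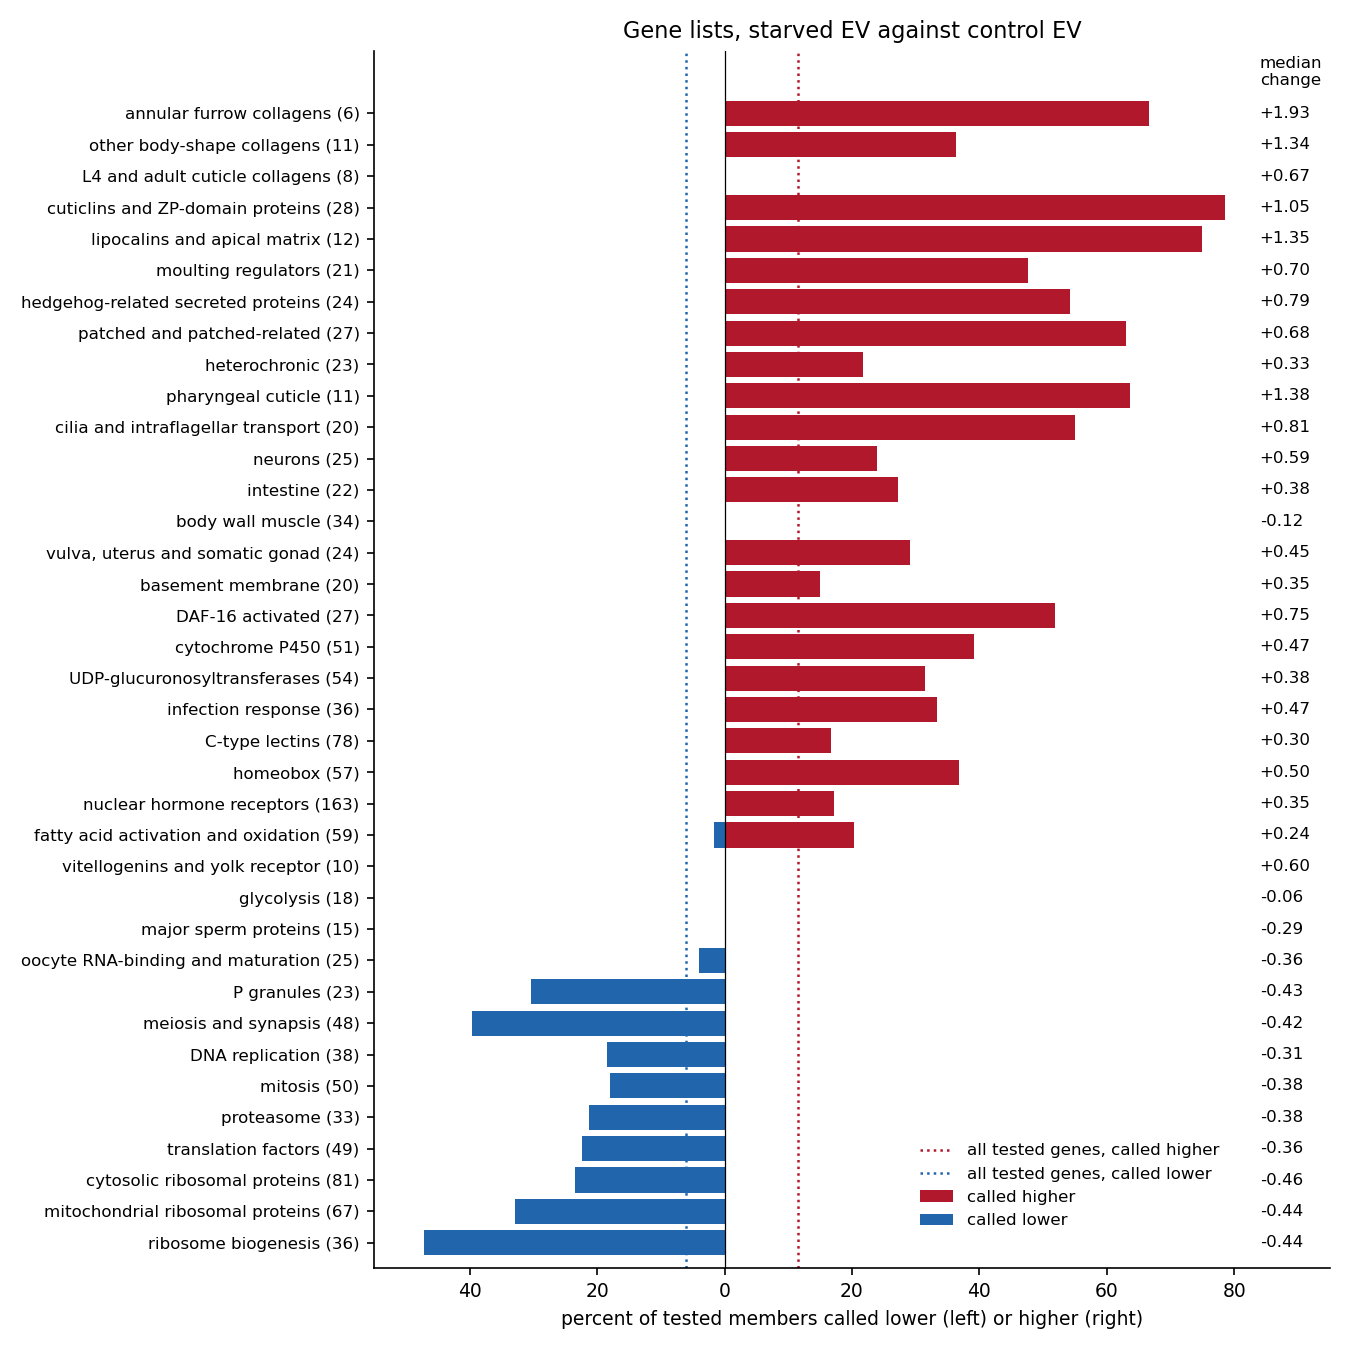
For gene lists of known function, with the number of tested members in brackets, the percent of members called lower (bars to the left) or higher (bars to the right) in starved EV, and at the right the median change (difference of log2(CPM + 1)). Dotted lines mark the share of all tested genes called higher (11.5%) and lower (6.12%). Cuticle, moulting and pharyngeal cuticle lists reach farthest to the right, and ribosome biogenesis and meiosis farthest to the left.

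Central carbon metabolism changed little by these measures. None of 18 glycolysis genes and none of 24 genes of the tricarboxylic acid cycle was called, with medians of -0.06 (positive after rescaling to the same sum or quantile normalization, or without control EV library B or starved EV library C) and -0.19. Of 52 nuclear-encoded respiratory chain genes 2 were called lower (3.85%, against 6.12% of all tested genes). *enol-1*, for enolase, was at 802, 883 and 770.3 CPM in control EV and 842, 821 and 740.1 CPM in starved EV, with overlapping groups (change -0.03 ± 0.13, adjusted p = 0.872).

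Of 59 genes of fatty acid activation and oxidation 12 rose (20.3%, against 11.5% of all tested genes) and 1 fell (median 0.24, and at fewest 6 called without control EV library C). *acs-22*, an acyl-CoA synthetase of the fatty acid transport protein family, was at 84.1, 81.9 and 86.8 CPM in control EV and 149, 149 and 192 CPM in starved EV (change 0.93 ± 0.15, adjusted p = 0.0019). *cpt-4*, a carnitine palmitoyltransferase gene, was at 4.31, 3.18 and 1.44 and 11.4, 8.47 and 6.66 CPM (change 1.35 ± 0.28, adjusted p = 0.00928), and *acs-12* rose by 0.93 ± 0.17 (adjusted p = 0.00477). All 3 genes had groups that did not overlap. Of 41 genes of lipases, lipid droplets and lipid binding 7 rose (17.1%, against 11.5% of all tested genes) and none fell (at fewest 4 called without control EV library B), among them the lipase genes *lips-3*, *lips-11*, *lips-5* and *lipl-2*, by 1.55, 1.51, 1.06 and 1.01. *lips-11* had 1, 2 and 2 reads in control EV and 48, 40 and 68 in starved EV. *cgt-1*, which makes glucosylceramide, rose from 1.39, 0.951 and 0.698 to 3.90, 2.67 and 3.38 CPM (change 1.11 ± 0.20, adjusted p = 0.00405).

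Yolk protein genes varied widely between replicates. None of 10 vitellogenin and yolk receptor genes was called, although the median change was 0.60. *vit-2* was at 30603, 14372 and 8483 CPM in control EV libraries A, B and C and 43198, 24495 and 15467 CPM in starved EV, so that control EV library A lay above starved EV libraries B and C (change 0.71 ± 0.52, adjusted p = 0.327).

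Among genes that DAF-16 is known to activate, 14 of 27 rose (51.9%, against 11.5% of all tested genes) and none fell. Their median was 0.75, and at fewest 9 were called, without control EV library B. The pathway genes themselves were mostly not called. The *pud* genes encode proteins first found at high level in *daf-2* mutants. *pud-3* (F15E11.15, chromosome V, 2324634 to 2325152) was at 7.04, 2.90 and 6.19 CPM in control EV and 46.8, 29.8 and 109 CPM in starved EV (change 3.16 ± 0.56, adjusted p = 0.00395), *pud-4* at 1.54, 0.951 and 1.16 and 10.6, 6.36 and 25.6 CPM (change 2.58 ± 0.56, adjusted p = 0.0109). *pud-1.1* and *pud-1.2*, near-identical copies whose reads may not be separable, rose by 2.22 and 2.27. In each *pud* gene starved EV library C was the highest and library B the lowest of its group, and both exceeded all controls. *sod-3*, a mitochondrial superoxide dismutase gene, was called higher by 0.62 ± 0.20 (adjusted p = 0.0479), but not without control EV A, B or C, starved EV A or C, or the *daf-2* RNAi libraries control B, control C or starved A (adjusted p up to 0.156). It was not called either after quantile normalization, after rescaling, with the 6 EV libraries alone or among genes of at least 5 CPM. Of 23 genes from the insulin receptor to DAF-16, *akt-2*, which encodes an AKT kinase of the pathway, rose from 9.41, 10.6 and 8.98 to 20.3, 15.97 and 17.6 CPM (change 0.83 ± 0.13, adjusted p = 0.0017), and none fell. *daf-16* was at 182, 176 and 132 and 217, 179 and 143 CPM with overlapping groups (change 0.13 ± 0.16, adjusted p = 0.586), and *daf-2* at 188, 155 and 91.6 and 193, 153 and 102 CPM (change 0.06 ± 0.55, adjusted p = 0.947). The standard error of *daf-2* comes from the fit of all 4 groups, and this gene varied more in the libraries labelled *daf-2* RNAi than on EV. None of 15 insulin-like peptide genes was called. Of 15 genes that DAF-16 is known to repress 1 was called higher and none lower.

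Of 51 cytochrome P450 genes 20 rose (39.2%, against 11.5% of all tested genes) and none fell (median 0.47, and at fewest 5 called without control EV library B). *cyp-25A1* was at 9.56, 7.78 and 10.6 CPM in control EV and 30.1, 25.18 and 26.8 CPM in starved EV, with tight groups far apart (change 1.46 ± 0.19, adjusted p = 0.000516). Of 54 UDP-glucuronosyltransferase genes, whose products conjugate lipophilic compounds, 17 rose (31.5%) and none fell (at fewest 6 called without control EV library B), and *ugt-44* rose from 46.1, 27.6 and 55.5 to 122, 86.8 and 143 CPM (change 1.45 ± 0.29, adjusted p = 0.00676). The P-glycoprotein transporter genes *pgp-5* and *pgp-6* rose by 1.34 and 1.09. Of 36 genes known to answer infection 12 rose (33.3%) and none fell (median 0.47, and at fewest 2 called without starved EV library C), and of 78 C-type lectin genes 13 rose, 16.7% and so near the 16.42% to 20.1% of all genes under 20 CPM (at fewest 3 called without control EV library C). *lys-3*, a lysozyme gene, rose from 0.694, 0.289 and 0.186 to 3.45, 2.08 and 4.91 CPM (change 1.66 ± 0.25, adjusted p = 0.00149). Of genes for antimicrobial peptides of the epidermis 4 of 23 rose (17.4%, near the same shares) and 1 fell, and *cnc-2*, a caenacin, was at 0.297, 0.744 and 0.419 and 2.77, 2.47 and 4.202 CPM (change 1.47 ± 0.21, adjusted p = 0.00105).

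Of 57 homeobox genes 21 rose (36.8%, against 11.5% of all tested genes) and none fell (median 0.50, and at fewest 7 called without control EV library B). *unc-42*, a factor of neuron identity, was at 0.595, 0.0414 and 0.186 CPM in control EV and 2.63, 1.88 and 2.71 CPM in starved EV (change 1.43 ± 0.20, adjusted p = 0.000809). *ceh-48* was at 1.73, 1.32 and 1.44 and 6.26, 4.63 and 5.84 CPM (change 1.39 ± 0.19, adjusted p = 0.000641). Of 163 nuclear hormone receptor genes 28 rose (17.2%) and none fell, and 153 of the 163 changes were positive (median 0.35, and at fewest 7 called without control EV library C). *elt-6*, a GATA factor of the seam epidermis, rose from 3.32, 3.35 and 2.70 to 8.26, 5.88 and 7.03 CPM (change 0.96 ± 0.18, adjusted p = 0.00541). Among genes with a mean under 5 CPM, 20.1% were called higher, above the share of the nuclear receptors.

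The same arrest lengths were compared in the 6 libraries labelled *daf-2* RNAi, which share no library with the EV comparison but share its fitted spread. The level of *daf-2* itself was not lower under the label. It averaged 145 ± 48.98 CPM in control EV and 149.5 ± 45.6 CPM in starved EV, against 212 ± 99.8 and 369 ± 306 CPM (SD, n = 3). Genes that DAF-16 is known to activate summed to 1318, 1366 and 1314 CPM in control EV and 2262, 2215 and 3124 CPM in control *daf-2* RNAi. Sums of genes that it is known to repress overlapped, at 11438 to 36475 and 12903 to 21859 CPM. Whether the RNA interference took hold was not tested. In the libraries labelled *daf-2* RNAi, 85 genes (0.663%) were called higher and 5 (0.039%) lower after 8 days. Of the 90 genes, 71 were also called on EV, which is 78.9% of the calls under that label and 3.13% of the EV calls. Of the 1481 genes called higher on EV, 1401 (94.6%) had a positive change under the label, with a median of 0.41. Of the 785 called lower on EV, 764 (97.3%) had a negative change, with a median of -0.20. Those genes were chosen by their change on EV, so a smaller change elsewhere is in part fixed by that choice. Under the label the median change was 0.19 among all genes under 5 CPM and -0.09 among those between 50 and 100 CPM. The share of all tested genes with the same sign in both comparisons is not given here, so the 94.6% and 97.3% have no background beside them.

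The difference between the comparisons was tested gene by gene as an interaction in the same fit. limma called 0 genes, with 912 at an unadjusted p under 0.05 and a smallest adjusted p of 0.297. edgeR also called 0, with 808 at an unadjusted p under 0.05, and DESeq2 called 4. *cut-2* changed by 3.48 ± 0.42 under the *daf-2* RNAi label (adjusted p = 0.00201), *col-165* by 3.09 ± 0.21 (adjusted p = 2.8e-05) and *mlt-9* by 1.57 ± 0.21 (adjusted p = 0.00346). For lists the medians on EV and under the label were 1.05 and 0.49 for cuticlins, -0.42 and -0.16 for meiosis, and -0.46 and -0.10 for cytosolic ribosomal proteins. The *pud* genes had little change under the label, 0.37 ± 0.56 for *pud-3* and 0.10 ± 0.43 for *pud-1.1*, and neither passed the test of the difference. Their mean level under the label was already high after 1 day of arrest. *pud-3* averaged 66.3 CPM in control *daf-2* RNAi, against 5.37 CPM in control EV and 61.8 CPM in starved EV. *pud-1.1* averaged 116, 19.7 and 106 CPM in the same order of groups.

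**Figure D5:**
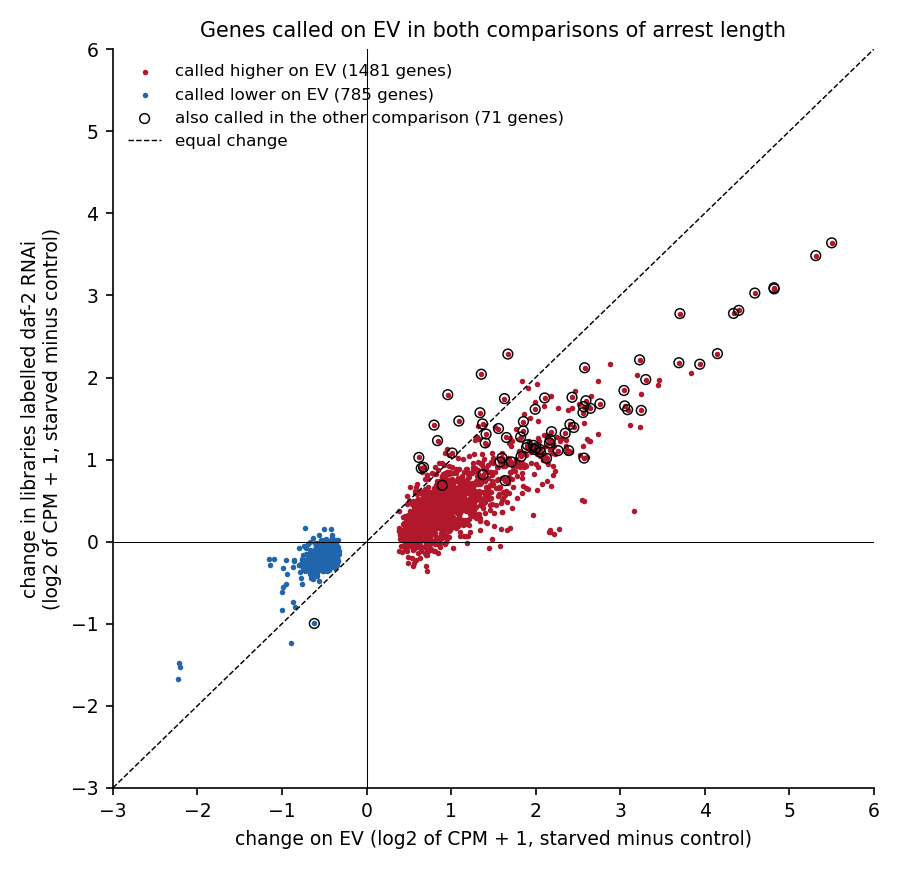
Each point is a gene called on EV, with its change on EV (horizontal) against its change in the libraries labelled *daf-2* RNAi (vertical), both as starved minus control differences of log2(CPM + 1), and a dashed line of equal change. Of the genes called higher on EV 94.6% and of those called lower 97.3% lie on the same side of 0 in both comparisons, and 71 circled genes were called in both. The matching share of all tested genes is not given.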

How the data were processed

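RNA of pooled whole animals was sequenced in 12 libraries, 3 in each of 4 groups. The deposited values are a signal, read counts divided by a scaled library size (CPM) by the authors, with column sums between 889133 and 1097908, so not plain CPM. Bowtie 1.1.2, HTSeq 0.12.4 and edgeR are named per the submitters' processing notes, with no role. For the genome build and annotation, the sources used here give none. Gene names and coordinates came from the Ensembl WBcel235 annotation, which matched 12731 of 12894 listed genes.

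From these values, log2(CPM + 1) was tested with limma 3.58.1 (trend, R 4.3.3) in 1 fit of the 4 groups, for genes at 1 CPM or more in at least 3 libraries, with Benjamini-Hochberg adjustment over all tested genes and a threshold of 0.05. The values were also turned back into whole reads, with 100% of values within 0.01 of a whole read in each library, for edgeR 4.0.16 (2115 genes called) and DESeq2 1.42.0 (3238) as alternatives. The design had been written for plain CPM, and the same test fitted the signal found. The fit was tested on simulated data first. A single gene cannot go below 0.1 in an exact two-sided permutation test of 3 against 3. The EV libraries held 21815842 to 25901878 reads over listed genes.

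The gene lists and the rule for named genes were chosen with earlier results of these data known. The rule took the 15 largest rises and falls among called genes with a class symbol, at least 10 CPM in the higher group and no overlap, up to 4 called members of each list (with none called, the 2 of highest level), and 8 genes of general interest, and the text prints part of these. *acs-22*, *phy-2*, *unc-54* and *col-19* were also kept after their values were seen. The alternatives were another pseudocount, other filters, 2 other normalizations, array weights, a replicate block, the 6 EV libraries alone, edgeR, DESeq2 and leaving out each library.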

Additional observations from a re-analysis of the deposited data

Results flagged for a closer look

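*phy-2*, which encodes a prolyl hydroxylase subunit that modifies collagen, had changes of opposite sign under the 2 bacterial labels. On EV it was called higher, by 0.55, and in the libraries labelled *daf-2* RNAi its change of -0.30 was not called (limma adjusted p = 0.543), with no overlap between the groups in either comparison. The difference was 0.85 on the log2 scale and was not called by the test of the difference itself. The EV call was lost without control EV library B or C or starved EV library A or C (adjusted p up to 0.102), after quantile normalization and with the 6 EV libraries alone.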

How the results depend on the processing

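The number of genes called on EV, 2266, was 3635 with array weights, 1335 among genes of at least 5 CPM, 1484 after quantile normalization, 1124 with the 6 EV libraries alone, 6371 with a replicate block, and from 728 to 2623 when 1 library was left out. Under the *daf-2* RNAi label, 90 calls became 372 with DESeq2, 285 with array weights, 16 among genes of at least 5 CPM, 54 after quantile normalization, 45 with its 6 libraries alone, 481 with a replicate block, and 28 to 195 when 1 library was left out. The interaction, with 0 calls, had 4 with DESeq2, 63 with a replicate block, and 0 to 1 when 1 library was left out. The letters A, B and C pair no samples by the labels. Same-letter deviations on EV correlated at 0.645, 0.085 and 0.659, and the block results are given for completeness. Of the 246 called named genes none reversed under any setting tried, and 242 were still called by DESeq2, 229 by edgeR, 202 after rescaling, 162 with the 6 EV libraries alone, 152 after quantile normalization and 109 in every fit that left out a library. Among genes not called, leaving out a library gave changes from -1.135 to 0.324 for *unc-54* (0.284 without starved EV library C), from -0.239 to 0.306 for *daf-2* (-0.150 without starved EV library A), from -0.020 to 0.281 for *daf-16* (-0.019 without starved EV library A) and from -0.102 to 0.390 for *lin-29*. The change of *vit-2* was 0 after quantile normalization, which gives equal values to genes of equal rank. An exact 0 from that method does not measure the size of its change. The change of *daf-2* was -0.0018 with DESeq2 and -0.048 with array weights, and that of *lin-29* -0.019 with array weights and -0.123 after quantile normalization. The cause of these shifts was not tested. Depth limits genes of few reads most.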

Other observations

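Many genes known only by their sequence names changed as much as the named cuticle genes, and they were chosen here after their values were seen. F41F3.3 had the largest change of any called gene, from 1.14, 0.579 and 0.930 CPM in control EV libraries A, B and C to 133, 63.3 and 69.3 CPM in starved EV (change 5.50 ± 0.27, limma adjusted p = 3.94e-07). By its name it comes from the same cosmid as F41F3.4, which is *col-139*, the gene with nearly the largest fall. ZK180.5 went from 0.297, 0.372 and 0.140 to 81.1, 23.4 and 21.9 CPM (change 4.82 ± 0.40) and C02E7.6 from 0.0495, 0 and 0.0930 to 19.4, 9.93 and 10.2 CPM (change 3.69 ± 0.29).

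Among 115 gene classes with at least 10 tested members, the 6 with the highest median change were *cutl* (0.94, with 14 of 18 called higher), *ptr* (0.88, 15 of 22), *clc* (0.64, 5 of 17), *vab* (0.56, 2 of 10), *mec* (0.53, 4 of 14) and *pgp* (0.52, 5 of 14). Of all tested genes 11.5% were called higher, and 20.1% of those under 5 CPM. The 6 with the lowest median were *rpl* (-0.48, with 13 of 45 called lower), *rps* (-0.44, 5 of 31), *mrps* (-0.44, 11 of 28), *mrpl* (-0.43, 11 of 39), *rbm* (-0.42, 4 of 13) and *him* (-0.41, 2 of 11), against 6.12% of all tested genes.

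The non-coding RNA genes *tts-1* and *tts-2* both rose. *tts-2* was at 2.08, 0.869 and 0.977 CPM in control EV and 77.2, 36.01 and 54.3 CPM in starved EV (change 4.59 ± 0.33, adjusted p = 4.95e-06), and *tts-1* at 14.7, 10.96 and 10 and 38.9, 32.5 and 49.1 CPM (change 1.67 ± 0.28, adjusted p = 0.00263).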
